A study of Homo sapiens with 4 samples.

Results

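The proteasome genes of ES-2 cells were compared between YM/MAML2-depleted and control cells. Members were all rows whose gene symbol was PSM, then a letter from A to G, then a number. The rule found 47 of the 19626 genes in the deposited tables. Of these, 46 had an RPKM (reads per unit of transcript length and of sequencing depth) above 1 and could be tested, and all 46 passed that limit in every library. The exception was PSMB11, the catalytic subunit of the thymus proteasome, with 1 and 0 counts in the control libraries against 2 and 0 in the depleted ones. PSMA8, the testis form of an alpha subunit, was not analysed here.

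ES-2 is an established human ovarian cancer line, labelled as clear cell carcinoma, that carries an endogenous fusion of YAP1 and MAML2 (YM). Cells received pLKO.1-based lentivirus with a nontargeting shRNA (shCtl, n = 2 independent cultures) or with shM2-3, 1 shRNA against MAML2 (n = 2). The target of shM2-3 lies in a stretch that the fusion and MAML2 share, so both were depleted and their parts cannot be told apart. According to the labels, virus was applied for 8 hours on consecutive days and RNA was taken 96 hours after the first infection, whereas the study's methods give a shorter transduction. MAML2, the targeted gene, had RPKM values of 8.61 and 8.26 in shCtl and of 3.11 and 3.0 in shM2-3. Its log2 fold change was -1.40 (standard error 0.0688, adjusted p = 5.18e-10, edgeR quasi-likelihood test with Benjamini-Hochberg correction). The MAML2 counts hold reads of the fusion's MAML2 part too. Libraries held between 20051083 and 23978660 estimated counts.

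Of the marker lists, NAPSA and PAX8, which mark clear cell or Müllerian tumours, reached no more than 0.369 RPKM in any library, whereas ARID1A lay between 13.4 and 17.4. The epithelial markers EPCAM and CDH1 stayed at or below 0.15 RPKM. The keratins KRT7, KRT8 and KRT18 were present and fell, and their summed RPKM with the other epithelial markers went from 637 in both shCtl libraries to 312 and 316 in shM2-3; their part in the results below was not tested. Leukocytes carry immunoproteasomes at rest. Of 7 leukocyte markers in the tables, LYZ and CD53 passed an RPKM of 1 in any library, and the summed level was 1.26 and 0.692 in shCtl and 4.32 and 1.21 in shM2-3. CD14, a monocyte marker that stayed under 1, had RPKM values of 0.0777 and 0.102 in shCtl and was higher in both shM2-3 libraries, at 0.89 and 0.866. PTPRC, the leukocyte common antigen, stayed at 3 counts or fewer in every library, and none of 4 fibroblast markers passed an RPKM of 1.

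The proteasome degrades proteins that have been tagged with ubiquitin. Its 20S core is a barrel of alpha and beta rings with the catalytic sites of PSMB5, PSMB6 and PSMB7 inside, and the 19S cap, made of a base with ATPases and a lid, recognises, unfolds and feeds in the substrate. Interferons are known to induce the alternative catalytic subunits PSMB8, PSMB9 and PSMB10, which replace PSMB5, PSMB6 and PSMB7 in the immunoproteasome, and the PA28 activator of PSME1 and PSME2, which together favour peptides for antigen presentation.

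Promoters are shown first, for the members that hold a sequence known from interferon-induced genes. The promoter table is from RefSeq on GRCh38.p14 and held 41 of the 47 members. Each window covers 250 bases before to 50 bases after an annotated start of the gene. The core of the interferon-stimulated response element, searched on both strands as GAAA, 2 bases of any kind and GAAA again, was found in 6 of these 41 promoters (14.6%) and in 3.65% of all 27305 promoters in the table. The 6 were PSMB10, PSME1, PSME2, PSMG4, PSMA4 and PSMB4. For PSMG4, on the plus strand, the stretch lies inside the RefSeq gene (3254404 to 3268049). Its window thus belongs to a later start. The windows of PSMB8 and PSMB9 did not hold these letters. A stretch of 30 bases around each match is given 5′ to 3′ with the match in capitals.
PSMB10 (hg38 chr16:67936852-67936881, minus strand): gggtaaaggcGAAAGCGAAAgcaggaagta
PSME1 (hg38 chr14:24136189-24136218, minus strand, opposite to the gene): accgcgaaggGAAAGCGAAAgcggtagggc
PSME2 (hg38 chr14:24146619-24146648, minus strand): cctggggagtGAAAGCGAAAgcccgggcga
PSMG4 (hg38 chr6:3258904-3258933, plus strand): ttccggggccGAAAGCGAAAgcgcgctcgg
PSMA4 (hg38 chr15:78540155-78540184, plus strand): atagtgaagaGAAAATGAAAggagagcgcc
PSMB4 (hg38 chr1:151399495-151399524, plus strand): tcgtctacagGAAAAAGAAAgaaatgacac

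PSMB10, PSME1, PSME2 and PSMG4 shared the 12 letters GAAAGCGAAAGC, which stood in 15 of the 27305 promoters (0.0549%) on either strand. This was the longest run that at least 4 of the 6 stretches shared, a search made after they had been read. PSMB10, PSME1 and PSME2 rose in shM2-3, where 36.3% of all genes tested did, and PSMG4 was not called. PSMA4 and PSMB4, which hold the core without the 12 letters, were not called either. PSMB9, with no match in its own window, rose. PSMB9 lies next to TAP1, which encodes a subunit of the peptide transporter and was not called. The genes are read in opposite directions from starts that lie 487 bases apart, and the promoter window of TAP1, between both starts, held 2 overlapping matches on the strand of PSMB9, shown in capitals.
TAP1 (hg38 chr6:32853816-32853845, plus strand, opposite to TAP1): tttagggGAAAGCGAAATCGAAAgcggccg

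A further set of motifs was searched on both strands with the fold changes already known. TTCNNNGAA, the gamma-activated site, stood in 4 of the 41 promoters (9.76%, against 7.88% of all). The antioxidant response element, at which NFE2L1 and NFE2L2 act, was tried in 3 forms. TGACNNNGC was found in 13 members (31.7%, against 13.6% of all), the looser TGANNNNGC in 25 (61%, against 42.1%) and the strict TGACTCAGC in 0 (0.564% of all). The looser form includes every match of the other 2. CCAAT stood in 19 members (46.3%, against 35.7%), and GGAATG, the site of the TEAD factors through which YAP1 acts, in 3 (7.32%, against 14%). A match is a description of the letters and neither a site nor a cause.

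In shM2-3 cells, 6 of the 46 tested members rose and 25 fell at an adjusted p of 0.05 or less in the edgeR quasi-likelihood test with Benjamini-Hochberg correction over all 12157 genes tested. That is 13% higher and 54.3% lower among members, where 36.3% of all genes tested were higher and 36.4% lower. The median log2 fold change was -0.17 over members (quartiles -0.39 and 0.03) and -0.0037 over all genes tested (quartiles -0.45 and 0.44). At a fold change of 2 or more, 1 member was higher (PSMB10) and 1 lower (PSMG1), where 9.24% and 8.93% of all genes tested were called. Of the 31 constitutive subunits of the 20S core and the 19S cap, 0 rose, 20 fell and 11 were not called, with a median of -0.25. Of PSMB8, PSMB9, PSMB10, PSME1 and PSME2, 4 rose and 1 was not called, with a median of 0.54. In these bulk samples, fewer cells of a type and less RNA per cell cannot be told apart.

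**Figure D1:**
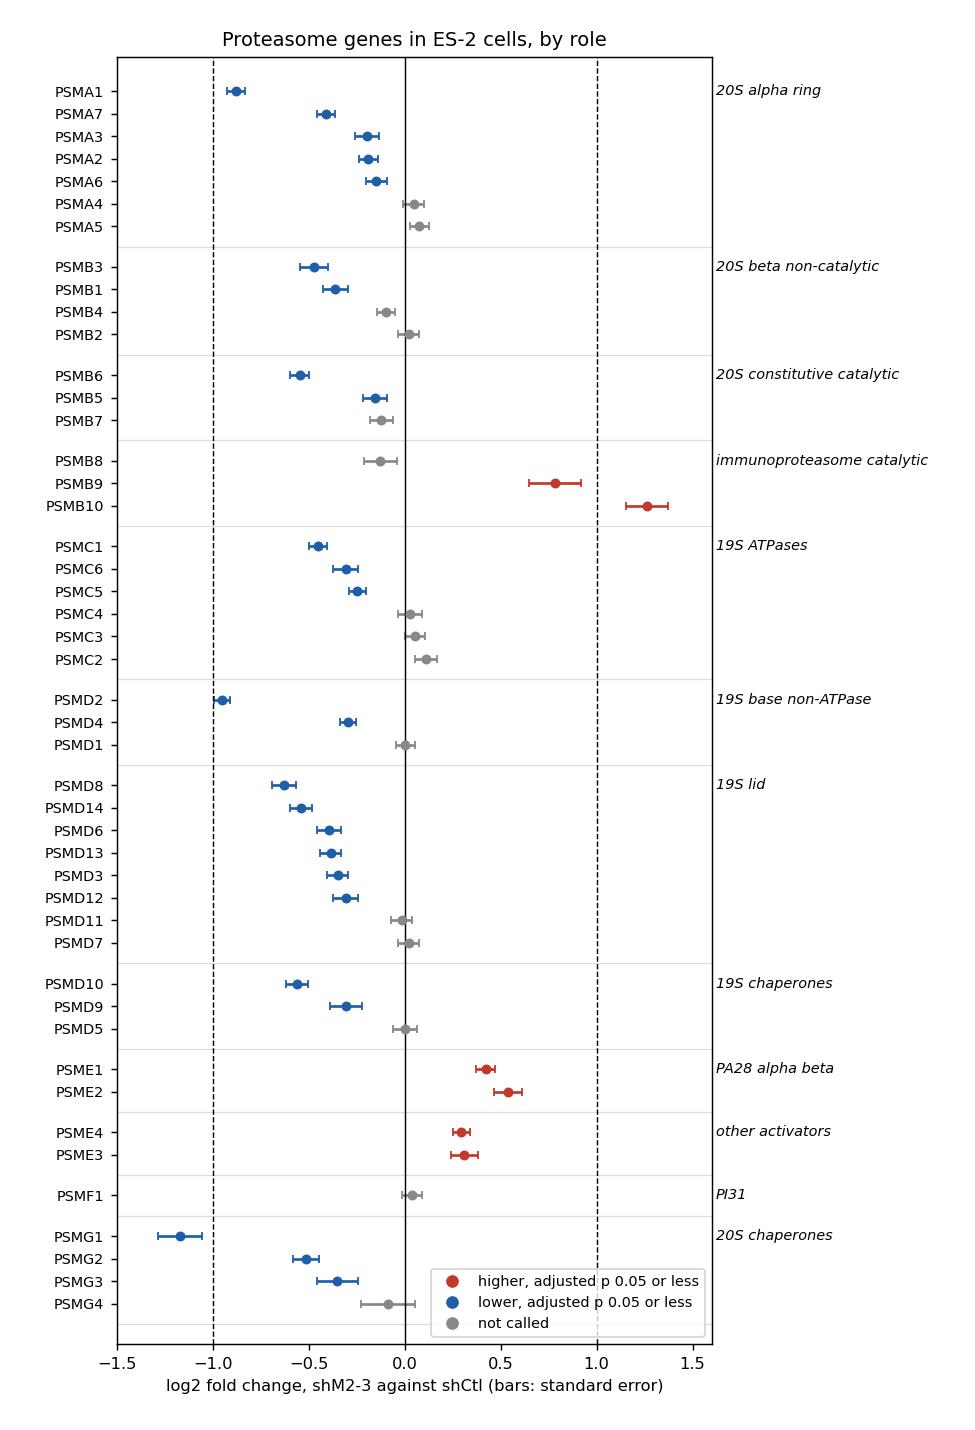
Log2 fold change of the 46 tested proteasome genes in shM2-3 against shCtl ES-2 cells (x axis, bars are standard errors), grouped by role on the y axis, with dashed lines at 2-fold. The points to the right of 0 that passed the test are PSMB9, PSMB10 and the activators PSME1 to PSME4, and the called points of the 20S core, 19S cap and assembly chaperones lie to the left.

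Among the alternative catalytic subunits, PSMB10 (chromosome 16 of GRCh38.p14, 67934506 to 67936850), which carries the trypsin-like site of the immunoproteasome, had RPKM values of 10.3 and 9.38 in shCtl and of 21.6 and 23.5 in shM2-3. Every shM2-3 value was over both shCtl values. The log2 fold change was 1.26 (standard error 0.109, 2.40-fold, adjusted p = 1.84e-07, edgeR quasi-likelihood test with Benjamini-Hochberg correction). PSMB9 (chromosome 6, 32854192 to 32859851, in the MHC region) had RPKM values of 6.55 and 7.02 in shCtl and of 11.5 and 10.8 in shM2-3. These groups did not overlap either, and the log2 fold change was 0.78 (standard error 0.137, 1.72-fold, adjusted p = 0.000171, same test). PSMB9 rested on the fewest reads of any tested member, with counts of 156 and 170 (shCtl) against 336 and 284 (shM2-3). PSMB8 (chromosome 6, 32840717 to 32844679) lies on the other side of TAP1, 529 bases from it. Its RPKM was 17.4 and 17 in shCtl and 14.4 and 15.7 in shM2-3, with both shM2-3 values under the shCtl values. PSMB8 was not called: the log2 fold change was -0.13 (standard error 0.0858, adjusted p = 0.193 in the edgeR quasi-likelihood test with Benjamini-Hochberg correction), and 2 standard errors to either side ran from -0.30 to 0.04. It was called lower where limma was run on log2 RPKM values (-0.19 and -0.18 with pseudocounts of 0.1 and 1). On that scale the median log2 fold change of all genes tested was itself -0.0683 and -0.0588. The leukocyte markers LYZ and CD53 were highest in shM2-3 replicate 1, and CD14 was higher in both shM2-3 libraries; their part in the values of PSMB9 and PSMB10 was not tested.

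The constitutive counterparts were each more abundant than the alternative subunit. PSMB5, with the chymotrypsin-like site, had RPKM values of 55.5 and 54.8 in shCtl and of 44.5 and 50.4 in shM2-3. Both shM2-3 values were lower, and the log2 fold change was -0.15 (standard error 0.0629, adjusted p = 0.042 in the edgeR quasi-likelihood test with Benjamini-Hochberg correction). This call was lost without shM2-3 replicate 1 (-0.0576, adjusted p = 0.412), without shCtl replicate 1 (adjusted p = 0.0965) and with DESeq2 (adjusted p = 0.11). PSMB6, with the caspase-like site, fell from 114 in both shCtl libraries to 73.1 and 75.6, a log2 fold change of -0.55 (standard error 0.0497, adjusted p = 3.14e-07, edgeR quasi-likelihood test). PSMB7, with the trypsin-like site, had 76.7 and 70.6 in shCtl and 64.1 and 65.4 in shM2-3. The values did not overlap, but PSMB7 missed the threshold in the edgeR fit (-0.12, standard error 0.058, adjusted p = 0.0747) and passed it without shCtl replicate 2 (-0.18, adjusted p = 0.0173), with total counts, with no filter on RPKM and with limma.

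**Figure D2:**
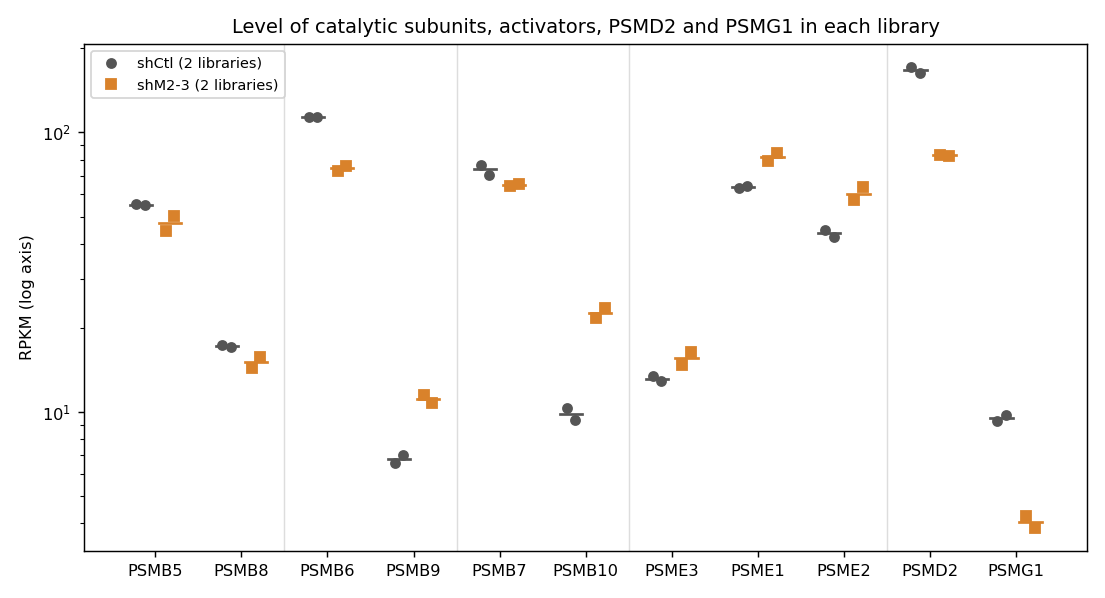
RPKM (y axis, log scale) in each library for the catalytic subunits of the 20S core beside their immunoproteasome counterparts, the PA28 activators, PSMD2 and PSMG1. Circles are shCtl and squares shM2-3 (2 libraries each), with short lines at the group means; PSMB9, PSMB10, PSME1, PSME2 and PSME3 lie higher in both shM2-3 libraries.

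Because each alternative subunit takes the place of 1 constitutive subunit, their levels were also set against each other within each library, where the scaling of the library cancels. PSMB10 made up 11.8% ± 0.0726 (SD, n = 2) of the RPKM of PSMB10 and PSMB7 in shCtl and 25.8% ± 0.84 (SD, n = 2) in shM2-3. PSMB9 made up 5.63% ± 0.252 (SD, n = 2) of PSMB9 and PSMB6 in shCtl and 13.1% ± 0.828 (SD, n = 2) in shM2-3. For PSMB8 with PSMB5 the shares were 23.8% ± 0.119 (SD, n = 2) and 24.1% ± 0.46 (SD, n = 2). In the first and second pair the ratio was 2.61 and 2.52 times as high in shM2-3, and the log2 differences of 1.38 and 1.33 were far larger than the pooled SD of 0.0453 and 0.0888. In the third pair the ratio was 1.02 times as high, and the log2 difference of 0.0259 was about the size of the pooled SD of 0.0265. An exact two-sided permutation test of 2 against 2 libraries cannot give less than p = 0.333. The exact test gave p = 0.333 for PSMB10 and PSMB9 and p = 0.667 for PSMB8, before any adjustment for the 5 ratios tested. These are transcript levels, and the make-up of assembled proteasomes was not measured.

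**Figure D3:**
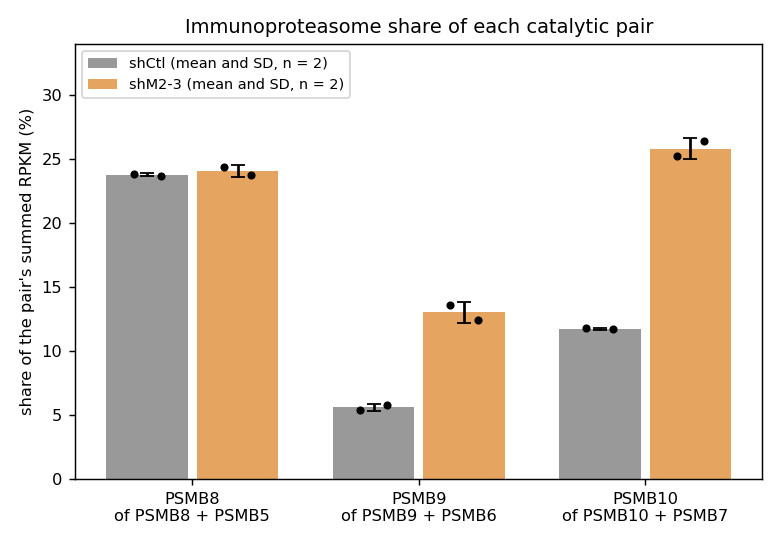
Share of each catalytic pair's summed RPKM that came from the immunoproteasome subunit (y axis, percent), in shCtl and shM2-3 (bars are means, error bars SD, points the 2 libraries of each group). The share of PSMB9 rises from 5.63% to 13.1% and that of PSMB10 from 11.8% to 25.8%, and the share of PSMB8 is 23.8% and 24.1%.

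All 4 activators of the core rose, where 36.3% of all genes tested did. PSME1 and PSME2, the alpha and beta subunits of PA28, lie 4402 bases apart on chromosome 14 (24136194 to 24138962 and 24143365 to 24146610). PSME1 had RPKM values of 63.4 and 64.1 in shCtl and of 79.1 and 84.1 in shM2-3, and PSME2 of 44.7 and 42.4 and of 57.1 and 63.6. Neither gene's groups overlapped. The log2 fold changes were 0.42 (standard error 0.0515, adjusted p = 6.02e-06) for PSME1 and 0.54 (standard error 0.0749, adjusted p = 2.11e-05) for PSME2 in the edgeR quasi-likelihood test with Benjamini-Hochberg correction. PSME3, the nuclear activator PA28 gamma, had 13.4 and 12.9 in shCtl and 14.7 and 16.4 in shM2-3 (log2 fold change 0.31, standard error 0.069, adjusted p = 0.00116, same test). PSME4, which encodes the activator PA200, had 11.8 in both shCtl libraries against 14 and 13.7 in shM2-3 (0.30, standard error 0.0457, adjusted p = 5.57e-05, same test). Against PSME3 in the same library, PSME1 was 1.08 times and PSME2 1.17 times as high in shM2-3 as in shCtl, with p = 0.333 in the exact permutation test for each. PSMF1, the inhibitor PI31, had 9.18 and 8.96 in shCtl and 9.13 and 8.69 in shM2-3. Its groups overlapped and it was not called (0.04, standard error 0.0515, adjusted p = 0.504, same test).

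In the ring of alpha subunits, 5 of 7 genes fell (71.4%, against 36.4% of all genes tested) and 0 rose (against 36.3%), with a median of -0.19. PSMA1 fell the furthest, from RPKM values of 69.8 and 73.6 in shCtl to 38 and 36.3 in shM2-3. Its log2 fold change was -0.88 (standard error 0.0472, adjusted p = 1.3e-09, edgeR quasi-likelihood test with Benjamini-Hochberg correction). PSMA7 was next (149 and 156 against 107 and 112, log2 fold change -0.41), and PSMA2, PSMA3 and PSMA6 had log2 fold changes between -0.20 and -0.15. At the other end, PSMA5 had 19.3 and 19.6 in shCtl and 19.6 and 19.5 in shM2-3 (0.08, standard error 0.0499, adjusted p = 0.184, same test), and PSMA4, whose promoter holds one of the matches above, had 15.9 and 15.8 against 15.1 and 16.2 (0.05, adjusted p = 0.472). Both overlapped between groups. The calls of PSMA3 and PSMA6 were lost with DESeq2 (adjusted p = 0.054 and 0.0852) and without replicate 1 of either group (adjusted p between 0.076 and 0.257).

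Of the 4 beta subunits without a catalytic site, PSMB1 and PSMB3 fell and PSMB2 and PSMB4 were not called. That is 50% lower, against 36.4% of all genes tested. PSMB3 went from 82.3 and 79.9 to 51.7 and 60.0 (log2 fold change -0.47, standard error 0.0741, adjusted p = 6.27e-05, edgeR quasi-likelihood test with Benjamini-Hochberg correction), and PSMB1 from 99.3 and 89.8 to 66.7 and 73.8 (-0.36). PSMB2 had 20.4 and 22.2 in shCtl and 19.97 and 21.4 in shM2-3, which overlap (0.02, standard error 0.0547, adjusted p = 0.744, same test). PSMB4, with 152 and 153 against 132 and 141, lay lower in both shM2-3 libraries (-0.10, adjusted p = 0.085), and it passed the threshold without shM2-3 replicate 2 (-0.15, adjusted p = 0.0227), with total counts, with no filter on RPKM and with limma.

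In the 19S base, 3 of the 6 ATPases fell (50%, against 36.4% of all genes tested). These were PSMC1 (25.6 and 25.3 against 17.6 and 18, log2 fold change -0.45, standard error 0.0461, adjusted p = 9.65e-07, edgeR quasi-likelihood test with Benjamini-Hochberg correction), PSMC6 (-0.31) and PSMC5 (-0.25). The other ATPases, PSMC2, PSMC3 and PSMC4, had log2 fold changes from 0.03 to 0.11 and were not called. PSMC2 was the highest, with 17.5 in both shCtl libraries against 17.9 and 18.2 in shM2-3 (0.11, standard error 0.0565, adjusted p = 0.0947, same test). Of the other base subunits, PSMD2 (chromosome 3, 184299241 to 184309050), a scaffold that docks ubiquitin-binding factors, had the highest level of all members in shCtl. It fell from 171 and 164 to 83.3 and 82.3, a log2 fold change of -0.95 (standard error 0.0409, adjusted p = 1.3e-10, same test), just inside 2-fold, and limma on log2 RPKM values put it past 2-fold. PSMD1, the companion scaffold, had 31.8 and 30.1 in shCtl and 28.9 and 30.3 in shM2-3, which overlap (log2 fold change 0.00, standard error 0.0501, adjusted p = 0.977, same test). PSMD4, a ubiquitin receptor, fell from 101 and 102 to 79.4 and 78.7 (-0.30).

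In the 19S lid, 6 of 8 genes fell (75%, against 36.4% of all genes tested) and 0 rose (against 36.3%), with a median of -0.37. PSMD8 had RPKM values of 61.2 and 55.4 in shCtl and of 34.7 and 37.3 in shM2-3 (log2 fold change -0.63, standard error 0.0633, adjusted p = 8.64e-07, edgeR quasi-likelihood test with Benjamini-Hochberg correction). PSMD14, the deubiquitinase that cuts ubiquitin off the substrate, went from 44.2 and 43.3 to 29.5 and 27.9 (-0.54). PSMD3, PSMD6, PSMD12 and PSMD13 had log2 fold changes between -0.40 and -0.31. PSMD7, the partner of PSMD14, had 46.5 and 45.8 in shCtl and 43.4 and 46.1 in shM2-3 (0.02, standard error 0.0542, adjusted p = 0.741, same test), and PSMD11 had -0.01 (adjusted p = 0.821). Neither was called.

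Most of the assembly chaperones with a PSM symbol fell as well. That was 3 of 4 for the 20S core (75%) and 2 of 3 for the 19S cap (66.7%), against 36.4% of all genes tested. Of the assembly factors without that symbol, POMP was not called (log2 fold change -0.000356) and PAAF1 fell (-0.51). PSMG1 (chromosome 21, 39174769 to 39183514), which pairs with PSMG2 to build the alpha ring, was the lowest of all members, with RPKM values of 9.30 and 9.78 in shCtl and of 4.23 and 3.85 in shM2-3. Its log2 fold change was -1.17 (standard error 0.114, 2.25-fold lower, adjusted p = 6.23e-07, edgeR quasi-likelihood test with Benjamini-Hochberg correction). The partner PSMG2 fell from 54.7 and 56.6 to 35.3 and 39.1 (-0.52). PSMG3 fell by 0.35 on the log2 scale, a call that was lost without shM2-3 replicate 1 (adjusted p = 0.0873). PSMG4, the partner of PSMG3 and the member with the lowest levels of those tested, had 2.96 and 2.30 in shCtl and 2.47 and 2.25 in shM2-3, which overlap (-0.09, standard error 0.14, adjusted p = 0.583, same test). Of the chaperones of the 19S base, PSMD10 (gankyrin) fell from 54.1 and 50.1 to 33.8 and 33.7 (-0.56, standard error 0.0574, adjusted p = 1.06e-06, same test) and PSMD9 by 0.31, the latter not without shM2-3 replicate 2 (adjusted p = 0.0641). PSMD5 had 13 in both shCtl libraries against 12.4 and 12.5 in shM2-3 and was not called (log2 fold change 0.00, standard error 0.0634, adjusted p = 0.989, same test).

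Summed over roles, the RPKM of the 47 members was 2202 and 2173 in shCtl and 1715 and 1784 in shM2-3, or 80.0% of shCtl. By role, the sum in shM2-3 was 76.1% of shCtl for the alpha ring, 76.9% for the constitutive catalytic subunits, 86.8% for the ATPases, 63.8% for the other base subunits, 74.9% for the lid and 66.1% for the PSMG chaperones. It was 81.0% for the beta subunits without a catalytic site, 71.9% for the chaperones of the 19S cap and 98.2% for PSMF1. The sum was 144% of shCtl for the immunoproteasome subunits, 132% for PSME1 with PSME2 and 118% for PSME3 with PSME4. Within the immunoproteasome sum, PSMB8 went from a mean RPKM of 17.2 in shCtl to 15.0 in shM2-3, while PSMB9 and PSMB10 rose. RPKM is scaled to the whole library, and on that scale the median log2 fold change of all genes tested was itself -0.0683 (pseudocount 0.1), so these shares lie slightly under those of the TMM-scaled fit.

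Of 15 tested genes of the 16 listed for antigen processing beside the immunoproteasome, 10 rose (66.7%, against 36.3% of all genes tested) and 4 fell (26.7%, against 36.4%), with a median of 0.80. TAPBP, the tapasin that loads peptides onto MHC class I, rose from RPKM values of 34 and 33.2 to 82.7 and 80.4 (log2 fold change 1.34), its relative TAPBPL by 1.96 and ERAP1, which trims peptides in the endoplasmic reticulum, from 9.45 and 8.90 to 27.7 in both libraries (1.66). UBD, the ubiquitin-like FAT10 that sends proteins to the proteasome, had 0 and 6 counts in shCtl and 388 in each shM2-3 library. Its fitted log2 fold change of 6.82 rests on those few control counts and was 11.6 without shCtl replicate 2. TAP1, the neighbour of PSMB8 and PSMB9, was not called (10.4 and 10.5 against 9.19 and 9.77, log2 fold change -0.08, adjusted p = 0.379 in the edgeR quasi-likelihood test with Benjamini-Hochberg correction), whereas TAP2 rose by 0.36. The class I chains HLA-B and HLA-C, whose near-identical sequences make the split of reads within the family uncertain, rose by 0.96 and 0.80, and B2M, their light chain, by 0.74. HLA-E, a non-classical class I chain of the same family, fell from 95.2 and 92.8 to 47.3 and 48 (-0.91). The chaperone CANX was the lowest of the list, from 276 and 265 to 104 and 107 (-1.29).

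Of 10 tested genes of the 11 listed as regulators of proteasome genes, 7 rose (70%, against 36.3% of all genes tested) and 1 fell (10%, against 36.4%), with a median of 0.44, level with the upper quartile of all genes. IRF1, an interferon-responsive factor known to drive immunoproteasome genes, rose from RPKM values of 3.15 and 3.35 to 14.7 and 14.1, a log2 fold change of 2.21 (standard error 0.0744, adjusted p = 9.84e-12, edgeR quasi-likelihood test with Benjamini-Hochberg correction). The interferon-gamma receptor chain IFNGR2 rose by 1.47. NFE2L1, which is known to raise proteasome subunit genes when proteasome activity is short, rose from 33.1 and 32.3 to 52 and 52.3 (0.74), and NFE2L2 by 0.51. NGLY1, the enzyme that strips sugars from NFE2L1 and is needed for its activity, fell from 17.3 and 15.9 to 9.71 and 9.51 (-0.72).

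Of 17 tested genes among the 18 listed proteasome-associated factors, 5 rose (29.4%) and 8 fell (47.1%), where 36.3% and 36.4% of all genes tested did, with a median of -0.06. The proteasome-binding protein ZFAND5 was the highest, from RPKM values of 11.6 and 10.6 to 33.4 and 32.8 (log2 fold change 1.64), and the adaptor ECPAS the lowest, from 19.2 and 18.1 to 11.8 and 11.1 (-0.64). The subunits that lack a PSM symbol went apart, with ADRM1, a ubiquitin receptor, higher by 0.23 and SEM1, a lid component, at -0.49. Of the 6 ubiquitin genes, 0 rose and 3 fell (50%, against the same 36.4%), with a median of -0.24. UBB went from 531 and 544 to 351 and 386 (-0.48), while UBA1, the main ubiquitin-activating enzyme, was not called (0.04, adjusted p = 0.313 in the edgeR quasi-likelihood test with Benjamini-Hochberg correction).

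**Figure D4:**
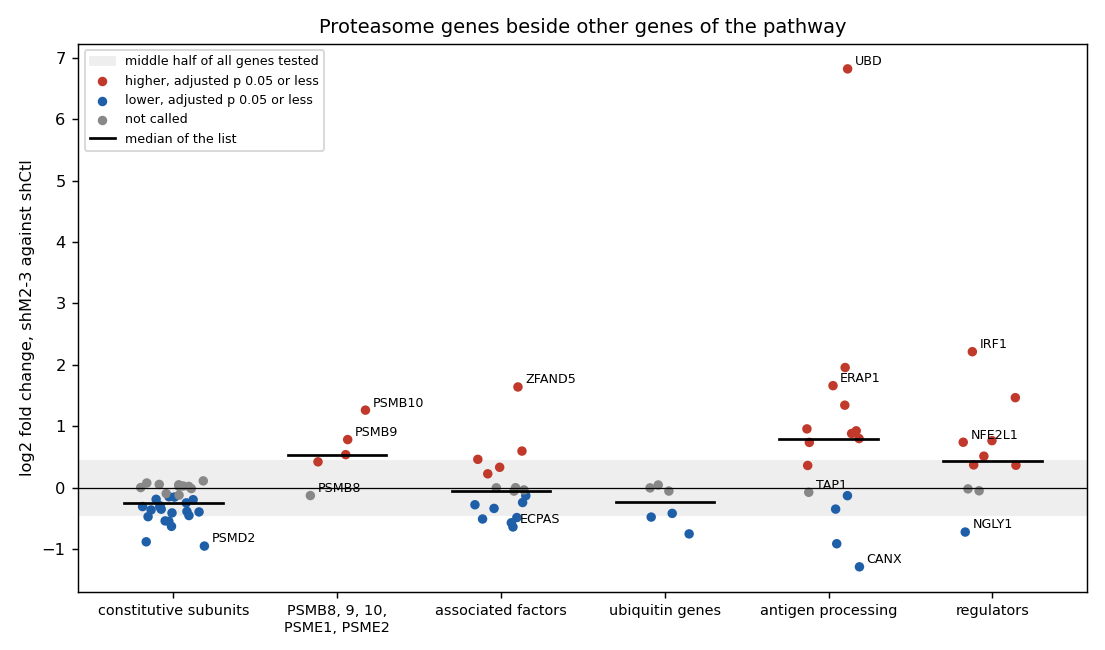
Log2 fold change (y axis, shM2-3 against shCtl) of the constitutive subunits, of PSMB8, PSMB9, PSMB10, PSME1 and PSME2, and of the 4 lists of other pathway genes (x axis). Each point is 1 tested gene, black lines are list medians (-0.25, 0.54, -0.06, -0.24, 0.80 and 0.44 from left to right), and the grey band spans the quartiles of all genes tested, -0.45 to 0.44.

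The libraries were not strand-specific, so reads from a member cannot be told apart from those of a gene on the opposite strand. In GENCODE release 44, 16 members had another gene, on either strand, over exons of their canonical transcript. The whole span of the other gene was counted, introns included, so exons need not meet exons and the opposite strand was not counted apart. PSMB10, PSME1, PSME2 and PSME4 were among the 16, and PSMB8, PSMB9, PSMD2 and PSMG1 had none. TAP1, which is not a member, had PSMB9 and PSMB8-AS1 over such exons by the same count. Its value is open to mixing to the extent that transcribed parts overlap. Pseudogenes named after a member were annotated for 17 members, 44 in all, 13 of them for PSMC1 and 6 for PSME2, and values of those members are uncertain to the extent that reads were shared.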

How the data were processed

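RNA-seq libraries of ES-2 cells (shCtl, n = 2; shM2-3, n = 2) were grouped by their labels. The labels give 96 hours to RNA isolation. Reads (paired ends, 150 bases) were mapped by the authors with HISAT2 2.0.4 on hg38, reads of ambiguous place or mapping quality below 10 were dropped, and RefSeq transcripts were quantified with Partek. They deposited estimated counts, of which 42.4% to 48.6% in a library were exactly whole (no tolerance, zeros included), and RPKM values. No column was without a sample.

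Estimated counts were rounded to whole numbers, since the planned design had assumed counts. The test was edgeR 4.0.16 (R 4.3.3), with TMM scaling, estimateDisp, glmQLFit and glmQLFTest, over the 12157 genes whose RPKM passed 1 in any library, with Benjamini-Hochberg adjustment over all of them. The limits were an adjusted p of 0.05 and, where stated, a fold change of 2. The procedure was tested on simulated data. The biological coefficient of variation was 0.0485. The libraries of a group differed by more than sampling noise (chi-square per degree of freedom 3.46 and 3.98).

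Members and lists were chosen with earlier results of these data known, so lists have no test of their own. Full values went to the immunoproteasome and PA28 genes and their counterparts, members called at 2-fold and the lowest and highest member of each role. Pathway lists were given by counts, lowest, highest and 2-fold genes. Not every gene that this would name is reported here. TAP1, TAP2, NFE2L1, NFE2L2, B2M, ADRM1, SEM1, POMP, PAAF1, UBB, HLA-B, HLA-C, HLA-E and CD14 were named after values had been seen. So were the other members and the keratins, and the motifs were chosen after it too. Of the marker lists, 1 of 4 clear cell, 3 of 5 epithelial, 2 of 7 leukocyte and 0 of 4 fibroblast genes had an RPKM above 1 in any library. Alternatives were DESeq2 size factors, total counts, the DESeq2 1.42.0 test, no filter, filterByExpr, limma 3.58.1 on log2 RPKM with pseudocounts of 0.1 and 1, the replicate number as a block, each library left out, and a fold limit of 1.5. Positions are from RefSeq on GRCh38.p14, the build of the authors' hg38 alignment.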

Additional observations from a re-analysis of the deposited data

How the results depend on the processing

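The count of members that rose was 6 under all 12 alternatives to the edgeR fit, and the count that fell ranged from 21 to 28. With a replicate block the counts were 6 higher and 25 lower, as without it. The labels do not say whether libraries of the same number were handled as pairs. The correlation of same-numbered deviations was -0.00813. In 28 of 46 members the direction and the side of the threshold held throughout, 5 called members (PSMA3, PSMA6, PSMB5, PSMD9 and PSMG3) lost the call and 3 uncalled ones (PSMB4, PSMB7 and PSMB8) gained it under at least 1 alternative. The median of the constitutive subunits was -0.284 with total counts, -0.279 with no filter, -0.313 and -0.309 with limma (pseudocounts 0.1 and 1), and -0.254 to -0.217 with 1 library left out. At a limit of 1.5-fold, 2 members were higher (PSMB9, PSMB10) and 4 lower (PSMA1, PSMD2, PSMD8, PSMG1); with limma 2 were lower by 2-fold (PSMD2, PSMG1). Signs reversed in 10 members and UBA1, none of them called. With limma at pseudocounts 0.1 and 1 the log2 fold changes were -0.0135 and -0.0133 for PSMC3, -0.0202 and -0.0191 for PSMA4, -0.0266 and -0.0241 for PSMF1, -0.0383 and -0.037 for PSMC4, -0.0443 and -0.0425 for PSMB2, -0.0456 and -0.0447 for PSMD7, -0.0637 and -0.0619 for PSMD1, -0.064 and -0.0598 for PSMD5, and -0.0225 and -0.0224 for UBA1. With total counts and with no filter they were -0.00895 and -0.00375 for PSMC4, -0.0155 and -0.0101 for PSMB2, -0.0154 and -0.0101 for PSMD7, -0.0345 and -0.0293 for PSMD1, and -0.0349 and -0.0299 for PSMD5. With filterByExpr they were -0.0151 for PSMD1 and -0.0158 for PSMD5. With 1 library left out the ranges were -0.0107 to 0.105 for PSMA4, -0.00249 to 0.0573 for PSMC4, -0.0337 to 0.0775 for PSMB2, -0.0282 to 0.0722 for PSMD7, -0.0405 to 0.0446 for PSMD1, -0.00569 to 0.00975 for PSMD5, -0.0388 to 0.00955 for PSMD11 and -0.263 to 0.107 for PSMG4. The median log2 fold change of all genes tested was -0.0037 in the edgeR fit. It was -0.0683 and -0.0588 with limma and -0.0397 with total counts. Over the genes of their own filters it was 0.0157 with no filter and -0.000879 with filterByExpr. The cause of these changes was not tested. With 2 libraries a group, the spread is known only roughly, and where 1 is left out the lone library is assumed to vary like the other group.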
